A study of Mus musculus with 6 samples.

Results

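The BCL2 family of survival and death genes was compared between germinal center (GC) and naive B cells of the mouse gut through 10 members, chosen by gene symbol and found among the 39179 genes with a deposited expression value. Pro-survival members were Bcl2, Bcl2l1 and Mcl1, effectors were Bax and Bak1, and BH3-only members were Bcl2l11, Bid, Bbc3, Pmaip1 and Bmf. B cells were sorted from the ileal Peyer's patches of wild-type female C57BL/6 littermates aged 12 wk, GC B cells by the surface phenotype Fas+GL7+ and naive (resting) B cells by Fas-GL7-. Each population was measured by RNA-Seq in 3 pools of 5 mice, so that mouse-to-mouse spread within a pool was not seen. No mouse carried an engineered allele or was treated, and the labels give both populations the same strain, sex, age and organ. Values are given in TPM, the abundance of a gene's transcripts per unit of length, scaled to the same total in every pool. Levels can thus be compared between genes. They are shares of the RNA of a pool, and the amount of RNA per cell was not measured.

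The proteins of this family decide whether the outer membrane of the mitochondrion stays closed. The effectors BAX and BAK form pores that release cytochrome c and start the caspase cascade. Pro-survival proteins hold the effectors and their activators in check, and BH3-only proteins, induced or activated by stress, loss of growth factors or DNA damage, bind the pro-survival proteins or trigger the effectors directly. GC B cells are known to divide fast and to die by apoptosis unless they are selected. Their low BCL2 protein is used in diagnosis, since follicular lymphoma cells keep BCL2 switched on through a translocation to the immunoglobulin locus. Loss of Mcl1 in mice is known to deplete GC B cells.

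Sorting markers followed the labels. Fas had 108.2, 115.4 and 119.1 TPM in the GC pools and 3.05, 3.59 and 3.03 TPM in the naive pools. The 6 GC markers summed to between 1402 and 1423 TPM in GC pools and to between 51.6 and 57.2 TPM in naive pools. Summed markers of T cells (6 genes) stayed between 1.72 and 4.71 TPM in all pools, those of myeloid cells (5 genes) between 0.836 and 2.17 TPM in GC and between 3.33 and 6.41 TPM in naive pools, and those of stromal cells (3 genes) at or below 0.111 TPM. Under 1 TPM in every pool were 3 of the 6 T cell markers, 3 of the 5 myeloid markers and all 3 stromal markers, and 1 myeloid marker was at 0 throughout. The 5 epithelial markers summed to between 22.0 and 37.1 TPM in GC pools and to between 46.9 and 74.4 TPM in naive pools, with 3 of them called lower and 1 called higher in GC B cells, and the 3 plasma cell markers summed to between 27.5 and 29.0 TPM and between 73.8 and 84.2 TPM, with 2 of them called lower and 1 called higher. The part of these other cells in the results below was not tested. In bulk RNA, fewer cells that express a gene and less of its RNA per cell cannot be told apart. Depth, estimated from the steps between low values, was about 9600000 to 16100000 reads per pool, and it is approximate.

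As a share of RNA, GC B cells had nearly no Bcl2, more Bcl2l1 and less Mcl1 than naive B cells. They also had more RNA of the effector Bak1 and of the BH3-only genes Bid, Bcl2l11 and Bbc3. The effector Bax was slightly higher, a call that did not hold after quantile normalization or a correction for G+C content and transcript length. In limma over the 12785 genes that reached 1 TPM in 3 or more pools, 6 of the 10 members were called higher in GC B cells (Benjamini-Hochberg adjusted p under 0.05), against 35.5% of all genes tested. Lower calls were made for 2 of the 10, against 30.1% of all genes, and 2 members were not called. Together 8 of 10 members were called, in a comparison that called 65.6% of all genes, and the GC and naive pools did not overlap for 8 of 10 members and for 70.7% of all genes. With 10 genes these counts are a description, and nothing particular to the family is read from them. The median log2 fold change, GC minus naive on the log2(TPM + 1) scale, was 0.66 over the 10 members and 0.03 over all genes. All 10 members passed the filter on low values, Bcl2 solely through its naive pools.

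**Figure D1:**
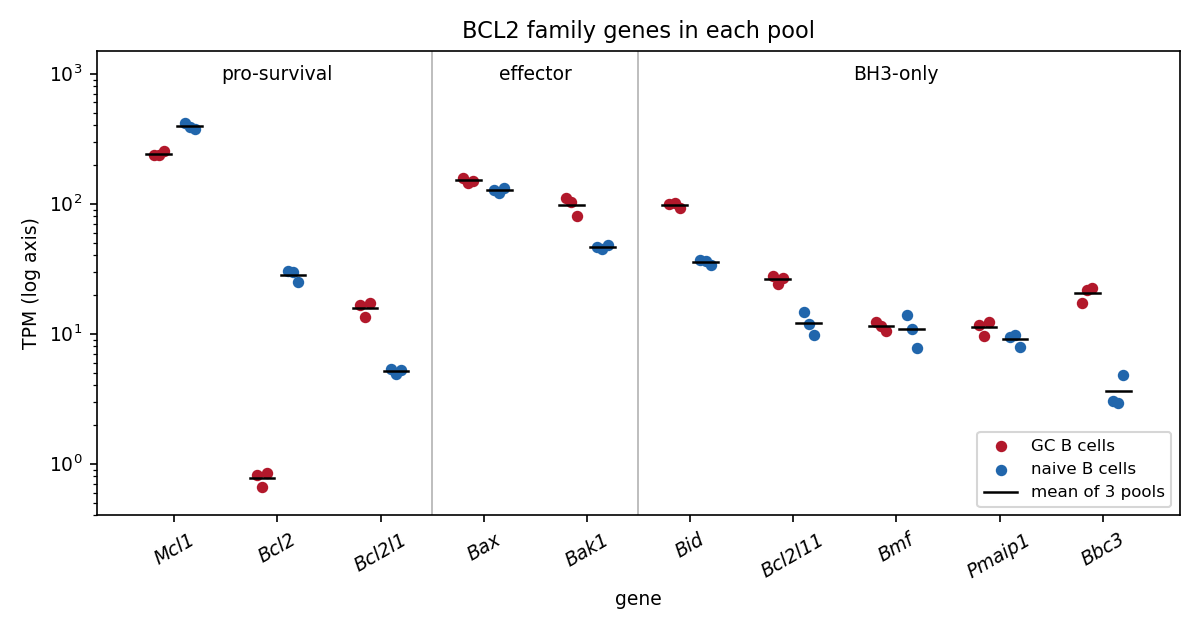
Level of each BCL2 family gene in TPM (vertical log axis) in each of the 3 GC pools (red) and 3 naive pools (blue), with the mean of the 3 pools as a black line. Bcl2 in GC B cells lies under 1 TPM, while Mcl1 is the highest of the 10 genes in every pool.

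Bcl2 (ENSMUSG00000057329), on the minus strand of chr1:106538176-106714290 in mouse build GRCm38, encodes the family's founding pro-survival protein. Its level was 0.813, 0.664 and 0.850 TPM in GC replicates 1, 2 and 3 and 30.5, 29.7 and 25.2 TPM in naive replicates 1, 2 and 3. Every GC pool was below 1 TPM and every naive pool above 25 TPM. On the linear scale Bcl2 was 36.7-fold lower in GC B cells, with a range of 29.6 to 46.0 when single GC pools were set against single naive pools (0.776 ± 0.0983 against 28.5 ± 2.89 TPM, SD, n = 3). The log2 fold change was -4.05 (SE 0.115, 95% interval -4.33 to -3.77, adjusted p = 6.96e-07 in limma), and 73 of the 12785 genes had a lower one. If all its reads came from the 7191-base transcript, the GC values rest on about 33 to 45 reads per pool and the naive values on about 1313 to 2450. Its exons share 558 bases (7.76%) with the opposite-strand gene D630008O14Rik, which had at most 0.22 TPM in any pool.

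The 3 genes whose pattern over the 6 pools lay nearest to that of Bcl2 were A430078G23Rik, 1300014I06Rik and Tlr7, an endosomal receptor for single-stranded RNA. Their distances were 0.183, 0.209 and 0.225, taken as the Euclidean distance between log2(TPM + 1) values after the mean of each gene was removed. The median over all genes was 5.03, and these 3 genes lie below it by choice, as the nearest of all. By the same choice they had log2 fold changes close to that of Bcl2 (-4.09, -4.09 and -4.00, beside -4.05). Tlr7 had 0.675, 0.388 and 0.753 TPM in GC pools and 24.0, 26.2 and 23.4 TPM in naive pools, and like Bcl2 it passed the filter on low values solely through its naive pools. A430078G23Rik had a similar level (0.858 to 1.23 against 28.4 to 36.7 TPM), and 1300014I06Rik was more abundant in both populations (17.7 to 19.0 against 319.9 to 340.9 TPM).

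The bases just before the start of Bcl2 and of Bcl2l11, whose protein BIM is bound by BCL2, are printed because these genes moved in opposite directions. Both windows are RefSeq sequence of GRCm38.p6, 250 bases long, on the strand of the gene and 5′ to 3′, and they end at the base before the annotated start. In that of Bcl2, chr1:106714291-106714540 on the minus strand, capitals mark GC boxes (GGGCGG or its reverse complement CCGCCC). In that of Bcl2l11, chr2:128125788-128126037 on the plus strand, they mark GC boxes, the FOXO motif GTAAACA and a CCAAT box, read there on the other strand as ATTGG.
Bcl2: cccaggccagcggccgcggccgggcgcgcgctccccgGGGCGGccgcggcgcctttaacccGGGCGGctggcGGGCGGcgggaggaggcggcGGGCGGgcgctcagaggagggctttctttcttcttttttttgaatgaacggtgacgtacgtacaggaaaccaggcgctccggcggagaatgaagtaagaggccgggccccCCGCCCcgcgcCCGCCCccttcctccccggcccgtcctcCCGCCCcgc
Bcl2l11: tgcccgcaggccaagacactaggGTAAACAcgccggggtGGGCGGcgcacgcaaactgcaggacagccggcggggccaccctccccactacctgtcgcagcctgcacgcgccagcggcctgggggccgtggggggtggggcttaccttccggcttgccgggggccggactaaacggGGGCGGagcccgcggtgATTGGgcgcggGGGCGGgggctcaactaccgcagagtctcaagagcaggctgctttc
Bases G and C made up 74.8% of the window of Bcl2, which held 36 CpG pairs and 7 GC boxes, and 72.0% of that of Bcl2l11, which held 24 CpG pairs and 3 GC boxes. The median over all 32851 promoter windows of this length was 52.4% and 6 CpG pairs. The FOXO motif lay 227 bases before this start of Bcl2l11 and the CCAAT box 57 bases before it. Another annotated start of Bcl2l11, at chr2:128127575, had GC boxes and CCAAT boxes but no FOXO motif in its window, which is not printed. Searched on both strands, GC boxes occurred in 32.7% of all windows, CCAAT boxes in 33.8% and the FOXO motif in 3.17%. None of the other motifs searched lay in either printed window: the E-box CACGTG (6.02% of all windows), E2F sites spelled TTTCCCGC, TTTGGCGC or TTTCGCGC (1.53%), the BCL6 motif TTCCTNGAA (1.31%), and NF-kB and p53 motifs (7.25% and 0.0639%). A match is a description of these letters and not a binding site.

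Bcl2l1 (ENSMUSG00000007659, chr2:152758732-152833803) encodes BCL-XL, a pro-survival protein that holds both effectors. It had 16.6, 13.3 and 17.2 TPM in GC pools and 5.31, 4.86 and 5.27 TPM in naive pools, so that every GC pool was above every naive pool. Its mean was 3.06-fold higher in GC B cells (range over pool pairs 2.52 to 3.55, 15.7 ± 2.08 against 5.14 ± 0.248 TPM, SD, n = 3), with a log2 fold change of 1.44 (SE 0.118, 95% interval 1.15 to 1.72, adjusted p = 7.39e-05 in limma).

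Mcl1 (ENSMUSG00000038612, chr3:95656944-95663179) encodes a short-lived pro-survival protein whose level depends on constant synthesis. It had 238.6, 237.1 and 253.6 TPM in GC pools and 418.5, 389.0 and 376.5 TPM in naive pools. All GC pools lay below all naive pools, yet Mcl1 was the most abundant member in both populations. The mean was 1.62-fold lower in GC B cells (range 1.49 to 1.77, 243.1 ± 9.12 against 394.7 ± 21.6 TPM, SD, n = 3), and the log2 fold change was -0.70 (SE 0.054, 95% interval -0.83 to -0.57, adjusted p = 5.55e-05 in limma).

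Of the summed RNA of the 3 pro-survival genes, Mcl1 made up between 93.2% and 94.4% in GC pools and between 91.8% and 92.5% in naive pools. Within this sum, the remainder shifted between Bcl2 and Bcl2l1. The sum leaves out pro-survival Bcl2l2 and Bcl2a1b, which are not among the 10 members. Of these, Bcl2a1b averaged 66.8 TPM in GC and 74.2 TPM in naive pools, above both Bcl2 and Bcl2l1. Bcl2 made up 0.265% to 0.318% in GC pools and 6.19% to 7.01% in naive pools, and Bcl2l1 made up 5.31% to 6.47% in GC pools and 1.15% to 1.29% in naive pools.

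Among the effectors, Bak1 (ENSMUSG00000057789, chr17:27019812-27028627), whose product sits on the mitochondrial membrane in healthy cells, had 109.8, 103.4 and 81.0 TPM in GC pools and 46.5, 44.6 and 48.4 TPM in naive pools. GC replicate 3 was the lowest of its group and still above all naive pools. Bak1 was 2.11-fold higher in GC B cells (range 1.68 to 2.46, 98.1 ± 15.1 against 46.5 ± 1.86 TPM, SD, n = 3), with a log2 fold change of 1.05 (SE 0.116, 95% interval 0.77 to 1.33, adjusted p = 0.000294 in limma). Its exons share 357 of 2407 bases (14.8%) with Ggnbp1 on the opposite strand, which had 13.1 to 17.3 TPM in GC pools and 8.60 to 12.6 TPM in naive pools. The library kit and the counting are not stated to use strand, so reads from the shared bases cannot be told apart.

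Bax (ENSMUSG00000003873, chr7:45461695-45466903) encodes the effector that moves from the cytosol to mitochondria on activation. It had 157.3, 144.7 and 150.7 TPM in GC pools and 126.5, 120.6 and 132.6 TPM in naive pools. The groups did not overlap, but the gap was small, 1.19-fold between the means (range 1.09 to 1.30, 150.9 ± 6.34 against 126.6 ± 6.02 TPM, SD, n = 3). The log2 fold change was 0.25 (SE 0.055, 95% interval 0.12 to 0.38, adjusted p = 0.00663 in limma). This call did not hold after quantile normalization (0.12, adjusted p = 0.159 in limma) or after a correction for G+C content and transcript length (0.02, adjusted p = 0.82 in limma).

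Bid (ENSMUSG00000004446, chr6:120893119-120917062) was the most abundant BH3-only member. Its protein is cut by caspase 8 and carries the signal of death receptors such as Fas to mitochondria. It had 100.1, 101.7 and 93.4 TPM in GC pools and 36.9, 36.5 and 33.5 TPM in naive pools, with every GC pool above every naive pool. The mean was 2.76-fold higher in GC B cells (range 2.53 to 3.04, 98.4 ± 4.39 against 35.7 ± 1.86 TPM, SD, n = 3), and the log2 fold change was 1.44 (SE 0.062, 95% interval 1.29 to 1.59, adjusted p = 3.94e-06 in limma). Bid shares 628 of 3550 exon bases (17.7%) with another family gene on the opposite strand, Bcl2l13, which had 13.3 to 15.4 TPM in GC pools and 10.9 to 11.0 TPM in naive pools.

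Bcl2l11 (ENSMUSG00000027381, chr2:128126038-128162547) encodes BIM, which is known to remove autoreactive and cytokine-deprived lymphocytes. It had 27.7, 24.1 and 26.9 TPM in GC pools and 14.6, 11.9 and 9.73 TPM in naive pools, without overlap. It was 2.17-fold higher in GC B cells (range 1.65 to 2.84, 26.2 ± 1.86 against 12.1 ± 2.47 TPM, SD, n = 3), with a log2 fold change of 1.07 (SE 0.147, 95% interval 0.72 to 1.43, adjusted p = 0.000792 in limma).

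Bbc3 (ENSMUSG00000002083, chr7:16308398-16318334) encodes PUMA, a p53 target that binds all pro-survival proteins. It had 17.3, 21.6 and 22.4 TPM in GC pools and 3.02, 2.96 and 4.80 TPM in naive pools. Naive replicate 3 was the highest of its group and remained far below the lowest GC pool. Bbc3 had the largest rise of the 10 members, 5.68-fold (range 3.61 to 7.58, 20.4 ± 2.72 against 3.59 ± 1.05 TPM, SD, n = 3). Its log2 fold change was 2.24 (SE 0.185, 95% interval 1.79 to 2.68, adjusted p = 7.57e-05 in limma), and 611 of the 12785 genes had a higher one.

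**Figure D2:**
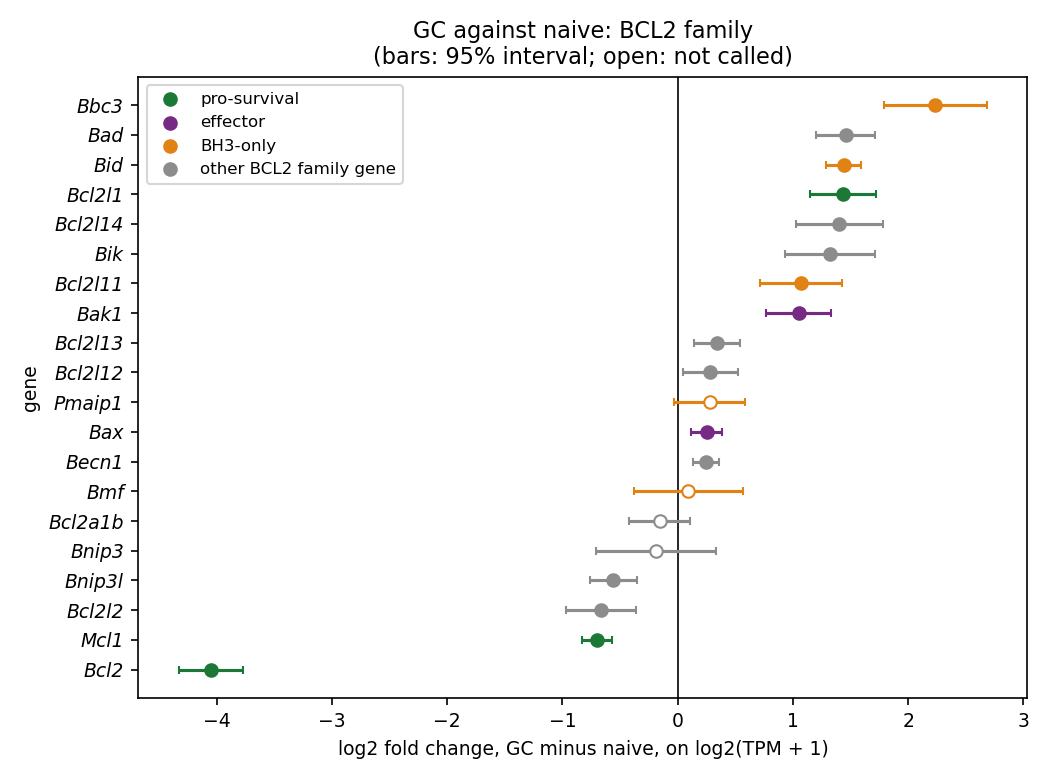
Log2 fold change, GC minus naive on the log2(TPM + 1) scale (horizontal axis), of the 10 members (colored by role) and of 10 other BCL2 family genes (gray), with 95% intervals from limma over 3 pools per population. Filled points were called at an adjusted p under 0.05 and open points were not. Bcl2, at -4.05, stands far to the left of Mcl1, at -0.70, and Bbc3 is farthest to the right, at 2.24.

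The other BH3-only members were not called. Pmaip1 (ENSMUSG00000024521), which encodes NOXA, a selective partner of MCL1, had 11.6, 9.59 and 12.3 TPM in GC pools and 9.42, 9.79 and 7.93 TPM in naive pools. Its groups overlapped, because GC replicate 2 was below naive replicate 2. The log2 fold change was 0.28 (SE 0.128, 95% interval -0.03 to 0.59, adjusted p = 0.101 in limma, 11.2 ± 1.42 against 9.05 ± 0.986 TPM, SD, n = 3), and without GC replicate 2 it was 0.37 and called (adjusted p = 0.0471 in limma).

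Bmf (ENSMUSG00000040093, chr2:118528757-118549686), whose protein is held by dynein light chains until the cell loses its attachment or growth signals, had 12.3, 11.4 and 10.5 TPM in GC pools and 13.9, 10.8 and 7.80 TPM in naive pools. The naive pools spanned the whole range of the GC pools. Bmf had a log2 fold change of 0.09 (SE 0.196, 95% interval -0.38 to 0.57, adjusted p = 0.698 in limma, 11.4 ± 0.913 against 10.9 ± 3.06 TPM, SD, n = 3). Its sign turned without naive replicate 3 (-0.10, adjusted p = 0.535 in limma).

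In GC B cells the levels ran from Mcl1 (243.1 TPM) through Bax (150.9), Bid (98.4), Bak1 (98.1), Bcl2l11 (26.2), Bbc3 (20.4), Bcl2l1 (15.7), Bmf (11.4) and Pmaip1 (11.2) to Bcl2 (0.776 TPM). The ranges of Bid and Bak1 overlapped, as did those of Bmf and Pmaip1, and the other neighbors were separate in their 3 pools. In naive B cells the order was Mcl1 (394.7 TPM), Bax (126.6), Bak1 (46.5), Bid (35.7), Bcl2 (28.5), Bcl2l11 (12.1), Bmf (10.9), Pmaip1 (9.05), Bcl2l1 (5.14) and Bbc3 (3.59 TPM). There the neighbors from Bcl2l11 to Pmaip1 overlapped. Bcl2 was thus the fifth of 10 members in naive B cells and the last in GC B cells.

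**Figure D3:**
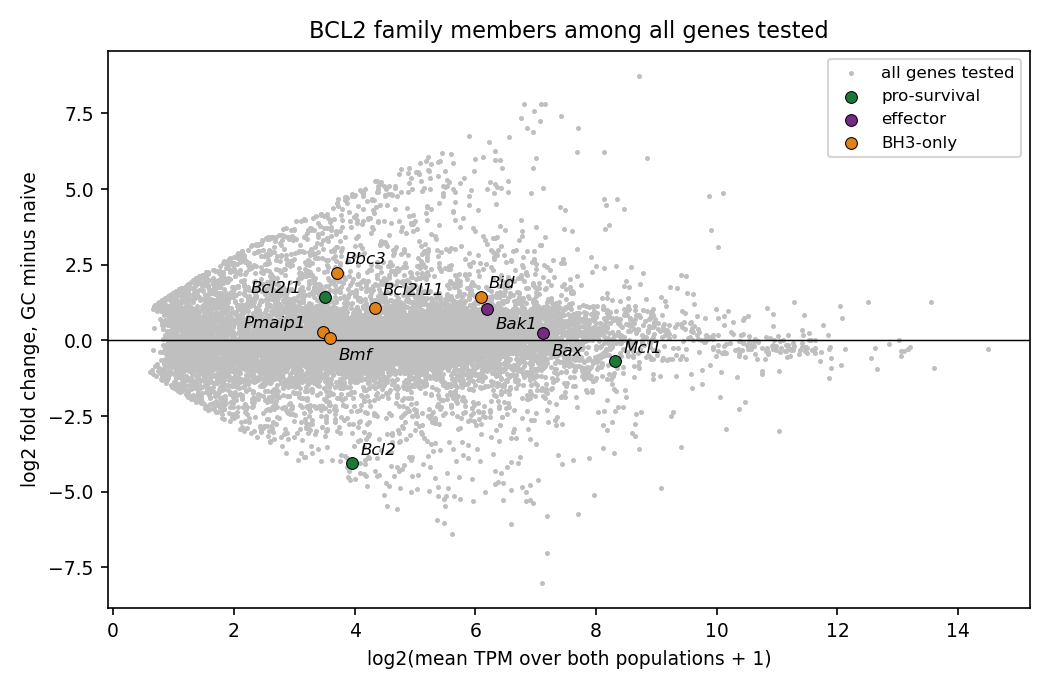
Log2 fold change, GC minus naive (vertical axis), against log2(mean TPM over both populations + 1) for all 12785 genes tested (gray) and the 10 members (colored by role). Members lie within the cloud of all genes, Bcl2 (-4.05) near its lower edge at its level of expression.

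Ratios between partners within a pool do not depend on a scaling factor shared by all genes of that pool. They can change under quantile normalization or the correction for G+C content and length, with which they were not computed. Bcl2 RNA per Bcl2l11 RNA was 0.0294, 0.0275 and 0.0316 in GC pools and 2.08, 2.51 and 2.59 in naive pools, a mean log2 difference of -6.34. Transcripts of Bcl2 thus outnumbered those of its antagonist in each naive pool, and the reverse held in each GC pool. Mcl1 per Bcl2 was 293.4, 356.9 and 298.3 in GC pools and 13.7, 13.1 and 15.0 in naive pools (log2 difference 4.5). Mcl1 per Pmaip1 was 20.5, 24.7 and 20.6 in GC pools and 44.4, 39.8 and 47.5 in naive pools (log2 difference -1.0). Bak1 per Bax was 0.698, 0.715 and 0.538 in GC pools and 0.368, 0.370 and 0.365 in naive pools (log2 difference 0.81). In all 4 ratios the groups did not overlap, and each gave p = 0.1 in a two-sided exact permutation test (0.1 after Benjamini-Hochberg adjustment over 4), which is the smallest p that 3 against 3 pools allow. Single genes did not overlap in 70.7% of all those tested, and no such share was computed over other ratios. Each ratio holds a member whose own pools did not overlap, so the separation is not independent of the single-gene results.

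The 10 members summed to 692.0, 667.6 and 668.8 TPM in GC pools and to 705.4, 660.7 and 651.8 TPM in naive pools, so their total overlapped between populations (676.1 ± 13.8 against 672.6 ± 28.7 TPM, SD, n = 3). Its make-up differed. Pro-survival genes made up 37.0%, 37.6% and 40.6% of it in GC pools and 64.4%, 64.1% and 62.4% in naive pools. BH3-only genes made up 24.4%, 25.2% and 24.7% in GC pools and 11.1%, 10.9% and 9.78% in naive pools. Effectors made up 38.6%, 37.2% and 34.6% in GC pools and 24.5% to 27.8% in naive pools. These shares were not tested, and they lean on the most abundant genes. They cover the 10 members only, so family genes outside this list, such as pro-survival Bcl2a1b and BH3-only Bad, are left out. With Mcl1 left out, the mean pro-survival share was 3.81% against 12.1% and the BH3-only share 38.7% against 25.6%, but the effector share turned, to 57.4% in GC against 62.3% in naive B cells.

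**Figure D4:**
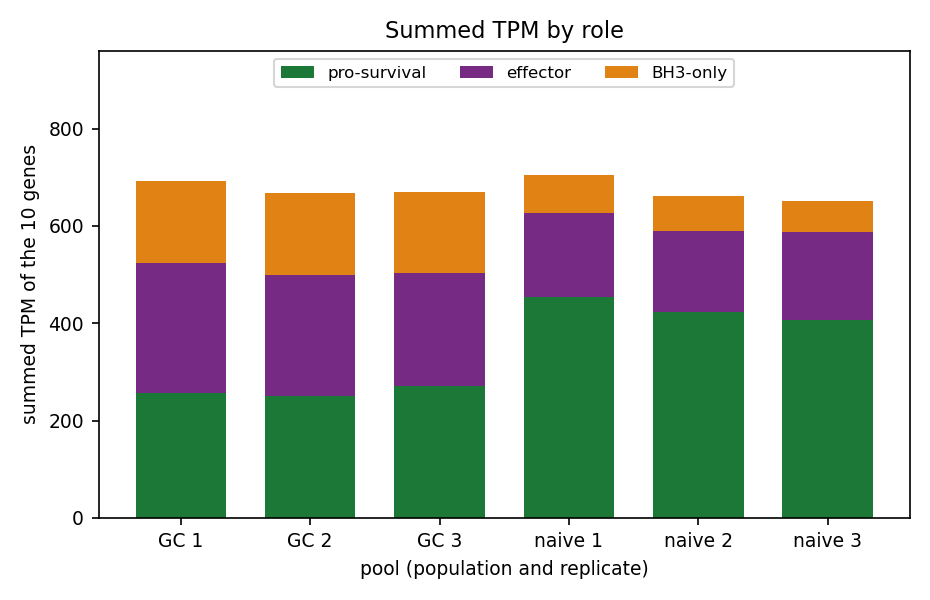
Summed TPM of the 10 members in each pool (bars, from 0), split into pro-survival, effector and BH3-only genes. Totals lie between 651.8 and 705.4 TPM, while the BH3-only part averages 167.6 TPM in the GC pools and 71.2 TPM in the naive ones.

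The BH3-only sum leaves out the BH3-only gene Bad, which is not among the 10 members. Bad averaged 49.0 TPM in GC and 17.2 TPM in naive pools, above every BH3-only member but Bid. Within this sum, Bid made up 56.5% to 60.4% in GC pools and 47.4% to 52.6% in naive pools. Bbc3 made up 10.3% to 13.5% and 3.88% to 7.53%, respectively, Bmf 6.32% to 7.27% and 12.2% to 17.9%, and Pmaip1 5.70% to 7.45% and 12.1% to 13.6%. The share of Bcl2l11 overlapped between the populations (14.3% to 16.4% and 15.3% to 18.8%), although its level rose.

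Of 17 further BCL2 family genes, 15 had a value and 10 passed the filter: 6 were called higher in GC B cells (35.5% of all genes were), 2 lower (30.1% of all genes) and 2 were not called. The median log2 fold change was 0.26 beside 0.03 over all genes. Bad, a BH3-only gene whose protein is silenced by AKT, had 43.7, 53.6 and 49.8 TPM in GC pools and 15.2, 18.2 and 18.2 TPM in naive pools (log2 fold change 1.46, adjusted p = 4.22e-05 in limma). Bik, another BH3-only gene, had 1.31, 1.98 and 1.28 TPM in GC pools and was listed at 0 in all naive pools (adjusted p = 0.000452 in limma). Bcl2l14 had 2.66 ± 0.293 TPM in GC and 0.386 ± 0.176 TPM in naive pools (SD, n = 3, log2 fold change 1.40, adjusted p = 0.000287 in limma). Bik and Bcl2l14 passed the filter solely through their GC pools. The remaining higher calls were small: Bcl2l13 (log2 fold change 0.34), Bcl2l12 (0.28) and the autophagy gene Becn1 (0.25), and none of the 3 was called after the correction for G+C content and length (0.21, 0.17 and 0.05). Becn1 and Bcl2l12 were also not called after quantile normalization (0.13 and 0.17). Bcl2l12 (adjusted p = 0.0398 in limma) further lost its call with FPKM as deposited, median-of-ratios scaling, no filter or eBayes without a trend, without GC replicate 1 (0.18) and without naive replicate 1, 2 or 3 (0.33, 0.27 and 0.26).

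Lower calls were made for Bcl2l2, which encodes the pro-survival protein BCL-W, with 4.78, 6.02 and 5.03 TPM in GC pools and 9.69, 7.90 and 9.23 TPM in naive pools (log2 fold change -0.66, adjusted p = 0.00345 in limma), and for the mitophagy receptor Bnip3l (52.3 against 77.2 TPM, -0.56, adjusted p = 0.0012 in limma). Bnip3, its relative, was not called (6.44 against 7.40 TPM, -0.19, adjusted p = 0.471 in limma). Pro-survival Bcl2a1b, which encodes an A1 protein, had 66.8 ± 9.63 TPM in GC and 74.2 ± 4.47 TPM in naive pools (SD, n = 3, -0.16, adjusted p = 0.254 in limma). After the correction for G+C content and length it was called lower (-0.50, adjusted p = 0.0023 in limma). Reads that RSEM divided between it and near-identical copies make this level uncertain. Of these copies, Bcl2a1c had at most 2.12 TPM in any pool and did not pass the filter, and Bcl2a1a and Bcl2a1d were not matched to a value here. In TPM, Bcl2a1b stood above both Bcl2 and Bcl2l1 in each population.

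All 18 listed genes that act with the family in mitochondrial apoptosis were tested: 13 were called higher in GC B cells, where 35.5% of all genes were, 3 lower (30.1% of all genes) and 2 were not called, with a median log2 fold change of 0.51. Birc5, which encodes survivin, a protein of cell division as well as of apoptosis control, had 166.7, 163.0 and 166.4 TPM in GC pools and 1.57, 1.26 and 2.29 TPM in naive pools (log2 fold change 5.96, adjusted p = 3.61e-07 in limma). Vdac3, a channel of the outer mitochondrial membrane, averaged 170.6 TPM against 64.3 TPM (1.39, adjusted p = 2.69e-06 in limma). Both were among the strongest rises of the list. The 3 that fell were Birc3, an inhibitor of apoptosis induced by NF-kB (138.8 against 305.2 TPM, -1.13, adjusted p = 2.88e-05 in limma), the mitochondrial nuclease gene Endog (6.67 against 11.4 TPM, -0.69, adjusted p = 0.000621 in limma) and Casp8 (46.0 against 73.9 TPM, -0.67, adjusted p = 6.34e-05 in limma). Casp8, whose protein cuts BID, was thus lower in GC B cells while Bid and Fas were higher, and a link between these changes was not tested.

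**Figure D5:**
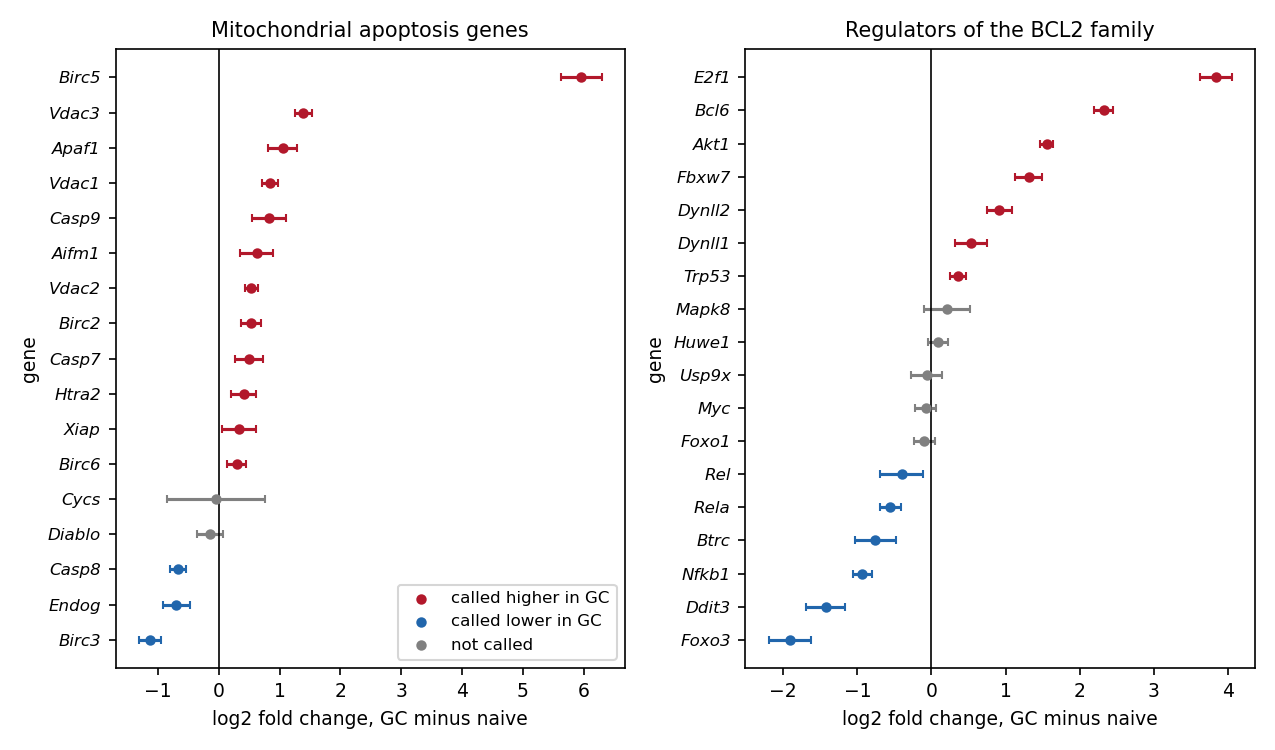
Log2 fold change, GC minus naive on the log2(TPM + 1) scale, with 95% intervals from limma, for 17 of the 18 mitochondrial apoptosis genes (left) and the 18 tested regulators of the BCL2 family (right). Red points were called higher in GC B cells, blue points lower, and gray points were not called. Apoptosis genes lie mostly to the right of 0, from Birc3 (-1.13) to Birc5 (5.96), and regulators lie on both sides, from Foxo3 (-1.91) to E2f1 (3.83).

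Of 18 tested genes known to regulate the family, 7 were called higher in GC B cells, 6 lower and 5 were not called, near the shares of all genes (35.5% higher and 30.1% lower), with a median log2 fold change of 0.01. Bcl6, the repressor that defines the GC program and is known to repress Bcl2, had 241.8, 249.6 and 258.0 TPM in GC pools and 49.0, 51.6 and 46.9 TPM in naive pools (log2 fold change 2.32, adjusted p = 3.34e-07 in limma). A link of Bcl6 to the level of Bcl2 was not tested. E2f1, a cell cycle factor that can induce BH3-only genes, averaged 57.8 TPM against 3.12 TPM (3.83, adjusted p = 3.54e-07 in limma), and Akt1, the survival kinase, 291.7 TPM against 98.9 TPM (1.55, adjusted p = 3.53e-07 in limma). All 3 were the top rises of this list. Foxo3, a known activator of Bcl2l11 and Bbc3, averaged 4.65 TPM against 20.3 TPM (-1.91, adjusted p = 1.97e-05 in limma). Foxo1, more abundant in both populations, averaged 82.66 TPM against 88.45 TPM and was not called (-0.095, adjusted p = 0.212 in limma). A link of either factor to the levels of Bcl2l11 and Bbc3 was not tested. Ddit3, a stress-induced factor, averaged 18.2 TPM against 50.6 TPM (-1.43, adjusted p = 5.06e-05 in limma), and Nfkb1, a subunit of NF-kB, 108.3 TPM against 208.3 TPM (-0.94, adjusted p = 1.29e-05 in limma).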

How the data were processed

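Total RNA (100 ng per pool) was made into libraries with a NEBNext Ultra kit. Per the labels and the study's methods, the authors trimmed adapters with cutadapt 1.9 and quantified reads on the NCBIm38 transcriptome with RSEM 1.2.25. They deposited FPKM per gene and pool, that is, fragments per kilobase of transcript, scaled to the mapped fragments. FPKM depends on the transcript length RSEM assigns, and RSEM divides reads shared by similar genes. No count was recovered, since 64.5% to 70.6% of low values lay within 0.1 of a whole number of reads.

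Here, TPM was FPKM divided by the pool's total and rescaled so that all pools had the same sum. Symbols for 33398 of 39179 identifiers came from the NCBIM37 annotation, and exon overlaps from that build. Positions and promoters came from RefSeq on GRCm38.p6 (16 windows for 9 members). The populations were compared with limma (3.58.1, under R 4.3.3; eBayes with a trend) on log2(TPM + 1), which understates changes of low genes, for genes that reached 1 TPM in 3 or more pools. P-values were adjusted over all 12785 genes and called under 0.05. The script was tested on simulated data. The rest was done in Python 3.11.15 (scipy 1.17.1, pandas 2.3.3, numpy 2.4.6, matplotlib 3.10.9).

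Members and lists were chosen with earlier results of these data known. Named genes are the 10 members, other family genes with at least 1 TPM on average in either population, the 3 strongest calls in each direction of the apoptosis and regulator lists, Fas and Bcl6, and the 3 genes nearest to Bcl2. Some genes that fall under this rule are not reported here. Bcl2a1c, D630008O14Rik, Ggnbp1 and Foxo1 were named after their values were seen. Alternatives were pseudocounts of 0.1 and 0.01 TPM, no filter or one of 5 TPM, FPKM as deposited, quantile and median-of-ratios scaling, eBayes without a trend, a replicate block and leaving out each pool. A correction for G+C content and length, and shares without Mcl1 and Bax, were added after the data were seen.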

Additional observations from a re-analysis of the deposited data

How the results depend on the processing

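For 58 results, 871 values under alternatives were computed, of which 832 kept their direction and their side of the threshold, or moved by less than the spread between pools or, for counts, by no more than 1.5 times. The log2 fold change of Bcl2 lay between -5.18 and -3.83 in 17 alternatives. Bax was not called after quantile normalization (0.12) or after correction for G+C content and length without or with the replicate block (0.017 in both), which also left 3 rather than 6 other family genes called higher. With each pool left out in turn, Pmaip1 ranged from 0.19 to 0.37 and Bmf from -0.10 to 0.28, the latter below 0 without naive replicate 3. On TPM + 1 the log2 difference was 3.35 for Mcl1 per Bcl2 and -5.12 for Bcl2 per Bcl2l11. Without Mcl1, the GC and naive shares were 3.81% and 12.1% (pro-survival), 57.4% and 62.3% (effector), and 38.7% and 25.6% (BH3-only). Without Mcl1 and Bax they were 5.87% and 22.2%, 34.6% and 30.8%, and 59.5% and 47.0%. The cause of these changes was not tested beyond what each alternative leaves out.

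Pools of the 2 populations share the numbers 1 to 3, and the labels do not say whether same-numbered pools came from the same mice. Correlations of their deviations were 0.083, 0.022 and 0.046 for same numbers and between -0.075 and 0.03 for different numbers. These values do not settle the pairing, and the pools were treated as unpaired. With the replicate block, 7960 genes were called rather than 8392, and the member calls stayed at 6 higher and 2 lower. Low values limit the precision of Bcl2 in GC B cells and of Bbc3 in naive B cells, which rest on about 33 to 45 and 43 to 58 reads per pool. RNA levels were measured here, and protein levels were not.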
